A study of Mus musculus with 8 samples.

Results

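Chemokine ligands are small secreted proteins that draw leukocytes into tissues, and the genes described here are those that encode them in the mouse. They were chosen by name and biotype from the table of deposited read counts: every protein-coding entry whose gene name begins with Ccl, Cxcl, Cx3cl or Xcl followed by a digit. The rule finds 44 entries under 38 gene names among 54532 genes, and it uses no measured value. Of these entries, 25 had at least 100 counts in at least 1 library, 7 had a highest count of 4 to 99, 4 had a highest count of 1 to 3, and 8 had 0 counts in every library.

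The libraries are RNAseq of GFP+ (mG+) cells sorted by FACS from female mice aged 8 months, and there are 8 of them in 4 pairs. The KO mice were Tie2e-cre; TERTfl/fl; mTmG and the WT mice were Tie2e-cre; TERT+/+; mTmG, so that both genotypes carry the Cre transgene and the mTmG reporter, which switches a cell from membrane Tomato to membrane GFP once Cre has acted. The cells came from subcutaneous adipose tissue (SAT) of mice on high fat diet (HFD), and from SAT, visceral adipose tissue (VAT) and gastrocnemius muscle of mice on chow, with 1 library per genotype in each. Tie2e is an endothelial promoter, Tie2 is also active in part of the blood lineage, and whether a library pools several mice, or whether the chow tissues share mice, is not stated in the sources used here. With 1 library per genotype, a KO over WT difference within a pair describes 2 libraries, and its 95% interval (Clopper-Pearson, of the ratio) covers counting error only.

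Chemokines are grouped by the spacing of their first cysteines (CC, CXC, CX3C and XC) and act through G protein-coupled receptors on the cells they attract. Ligands of CCR2 recruit monocytes, ligands of CXCR2 recruit neutrophils, ligands of CXCR3 recruit activated T cells, and homeostatic ligands such as *Cxcl12* position cells in tissues at rest. In adipose tissue, endothelial cells, macrophages and stromal cells are all known sources of inflammatory chemokines, many of which are under control of NF-κB and interferon signalling.

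Several of the genes lie side by side. In the coordinates of the files (GRCm38), *Ccl2* (ENSMUSG00000035385, chromosome 11, 82035571 to 82037453), *Ccl7*, *Ccl11*, *Ccl12*, *Ccl8* and *Ccl1* follow each other on chromosome 11. A further group on that chromosome runs from *Ccl5* (ENSMUSG00000035042, from 83525778) through *Ccl9*, *Ccl6* and *Ccl3* to *Ccl4* (ENSMUSG00000018930, to 83664683). On chromosome 5, *Cxcl5*, *Cxcl3*, *Cxcl15*, *Cxcl1* (ENSMUSG00000029380, 90891241 to 90893115) and *Cxcl2* (ENSMUSG00000058427, 90903871 to 90905938) form a run, and *Cxcl9* and *Cxcl10* lie together elsewhere on it. *Cxcl12* (ENSMUSG00000061353, 117168535 to 117181367) stands alone on chromosome 6.

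Promoter sequences, the 250 bases before a RefSeq start (GRCm38.p6), were at hand for 27 of the 44 entries, matched by gene name and chromosome. That start lay 125878 bases from the gene start in the deposited counts for *Ccl1* and 82647 bases for *Ccl21b*. For the other entries it lay at most 212 bases away. The NF-κB consensus was found on either strand in 6 of the 27 (22.2%), those of *Ccl9*, *Ccl20*, *Cxcl1*, *Cxcl2*, *Cxcl3* and *Cxcl10*, and in 3.90% of the 32851 mouse promoters searched in the same way. The letters TATAAA were in 8 of the 27 and in 12.4% of all promoters, GAAA followed after any 2 bases by GAAA again (the interferon response element) in 3 of the 27 and 2.98%, GGGCGG (a GC box) in 4 of the 27 and 32.7%, and CACGTG (an E-box) in 1 of the 27 and 6.02%. A match is a description of letters and not a site known to be bound. *Cxcl1*, *Cxcl2* and *Cxcl3* are shown because the neighbours carry the same 11 letters in a row, GGGAATTTCCC, and because *Cxcl2* had the highest level of the family per kilobase in VAT and muscle. *Ccl9* and *Cxcl10* are shown because both hold the NF-κB consensus and passed the test of VAT against SAT described further on. *Ccl3* and *Ccl6* passed that test too, but their upstream stretches held none of the motifs searched and are not shown. *Cxcl12* is shown because its upstream stretch holds GC boxes and no NF-κB consensus. Each is printed 5′ to 3′ on the strand of the gene and ends 1 base before the RefSeq start, and capitals mark the NF-κB consensus, TATAAA and the interferon response element on either strand, or, in *Cxcl12*, GGGCGG on either strand.
Cxcl1: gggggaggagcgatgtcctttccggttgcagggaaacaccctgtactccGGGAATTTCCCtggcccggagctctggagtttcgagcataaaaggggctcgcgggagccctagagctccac
Cxcl2: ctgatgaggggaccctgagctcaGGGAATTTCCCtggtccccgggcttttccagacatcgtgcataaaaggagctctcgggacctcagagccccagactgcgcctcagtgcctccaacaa
Cxcl3: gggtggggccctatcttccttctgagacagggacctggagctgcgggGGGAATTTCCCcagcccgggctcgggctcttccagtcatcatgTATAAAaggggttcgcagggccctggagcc
Ccl9: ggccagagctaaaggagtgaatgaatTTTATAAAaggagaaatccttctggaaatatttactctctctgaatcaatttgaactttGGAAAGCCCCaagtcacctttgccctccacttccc
Cxcl10: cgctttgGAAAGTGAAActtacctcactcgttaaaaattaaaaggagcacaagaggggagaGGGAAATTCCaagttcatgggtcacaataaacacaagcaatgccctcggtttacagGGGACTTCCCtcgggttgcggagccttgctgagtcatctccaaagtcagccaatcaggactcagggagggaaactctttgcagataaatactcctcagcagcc
Cxcl12: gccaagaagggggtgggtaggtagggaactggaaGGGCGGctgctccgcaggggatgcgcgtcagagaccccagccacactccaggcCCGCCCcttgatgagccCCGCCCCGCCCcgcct

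The runs shown are chr5:90891125-90891244 (*Cxcl1*, plus strand), chr5:90903779-90903898 (*Cxcl2*, plus), chr5:90785981-90786100 (*Cxcl3*, plus), chr11:83578637-83578756 (*Ccl9*, minus), chr5:92348890-92349109 (*Cxcl10*, minus) and chr6:117168415-117168534 (*Cxcl12*, plus). In *Cxcl10*, capitals mark 1 interferon response element and 2 stretches of the NF-κB consensus.

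Library totals ran from 6214269 to 18855772 counts, and 3 counts, taken as the floor for a gene listed at 0, were 0.184 to 0.434 CPM (counts scaled by TMM to a library of 1000000, the unit of every level given here). *Tert* counts in WT and KO were 114 and 0 in SAT on HFD, 70 and 11 in SAT on chow, and 24 and 7 in muscle. In VAT, by contrast, the library labelled KO had 9 and the library labelled WT had 3, against the labels. That difference was log2 0.90 with a counting interval of −1.02 to 3.50, which includes 0. The VAT libraries are therefore named by their labels throughout. The SAT chow WT library stood apart with 299 CPM of *Malat1*, a nuclear RNA, where the other libraries had 2176 to 6005 CPM. All 10 endothelial markers (*Pecam1*, *Cdh5* and others) were detected in every library, with summed levels of 262 to 1938 CPM, and macrophage, T cell and B cell markers were detected beside them in every library. In such bulk samples, fewer cells of a type and less RNA per cell cannot be told apart.

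Chemokine ligand RNA was most abundant in VAT. The 44 entries summed to 4997 CPM in the VAT library labelled WT and 6260 CPM in that labelled KO, to 1309 and 1149 CPM (WT and KO) in muscle, to 828 and 769 CPM in SAT on chow, and to 786 and 471 CPM in SAT on HFD. The VAT mean was 7.05 times that of SAT on chow and 4.58 times that of muscle. Among the 29 members that average 10 counts or more over the libraries, the highest mean level lay in VAT for 19, in SAT on chow for 5, in muscle for 3 and in SAT on HFD for 2. The same count was not made over all genes. The average also lets in members with most of their counts in 1 group, such as *Ccl1* in VAT (84 and 145 counts) and *Cxcl15* in SAT on chow (65 and 85 counts). By role, the mean sum of the CXCR2 ligands was 2021 CPM in VAT and 79.7 in SAT on chow, that of the CCR2 ligands 543 and 30.0, and that of the inflammatory CC ligands (*Ccl3*, *Ccl4*, *Ccl5*, *Ccl6* and *Ccl9*) 2321 and 416. The CCR4 ligands did not follow this order, with a mean sum of 40.1 CPM in VAT, 53.1 in SAT on chow, 13.7 in SAT on HFD and 9.90 in muscle.

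Marker sums differed between the same libraries. Endothelial markers (10 genes) summed to 1679 and 1413 CPM (WT and KO) in VAT and to 1696 and 1938 in muscle. In SAT the endothelial sums were lower, at 488 and 595 CPM on chow and 262 and 323 on HFD. B cell markers (7 genes) summed to 141 and 148 CPM in VAT against 957 to 2479 in the other libraries. Macrophage markers (10 genes, among them *Adgre1*, *Csf1r* and *C1qa*, none at 0 in any library) summed to 9328 and 9198 CPM in VAT, to 886 and 460 in SAT on chow, to 322 and 196 in SAT on HFD, and to 729 and 354 in muscle. Neutrophil markers (9 genes, among them *S100a8* and *Ly6g*) summed to 27371 and 31853 CPM in muscle against 57.0 to 258 in the other libraries, and T cell markers (10 genes) to 317 to 843 CPM in VAT and muscle against 2012 to 4263 in SAT. Stromal markers of the fibroblast type (9 genes, among them *Pdgfra* and *Col1a1*) summed to 704 to 3423 CPM. The part of these cells in the chemokine levels was not tested.

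**Figure D1:**
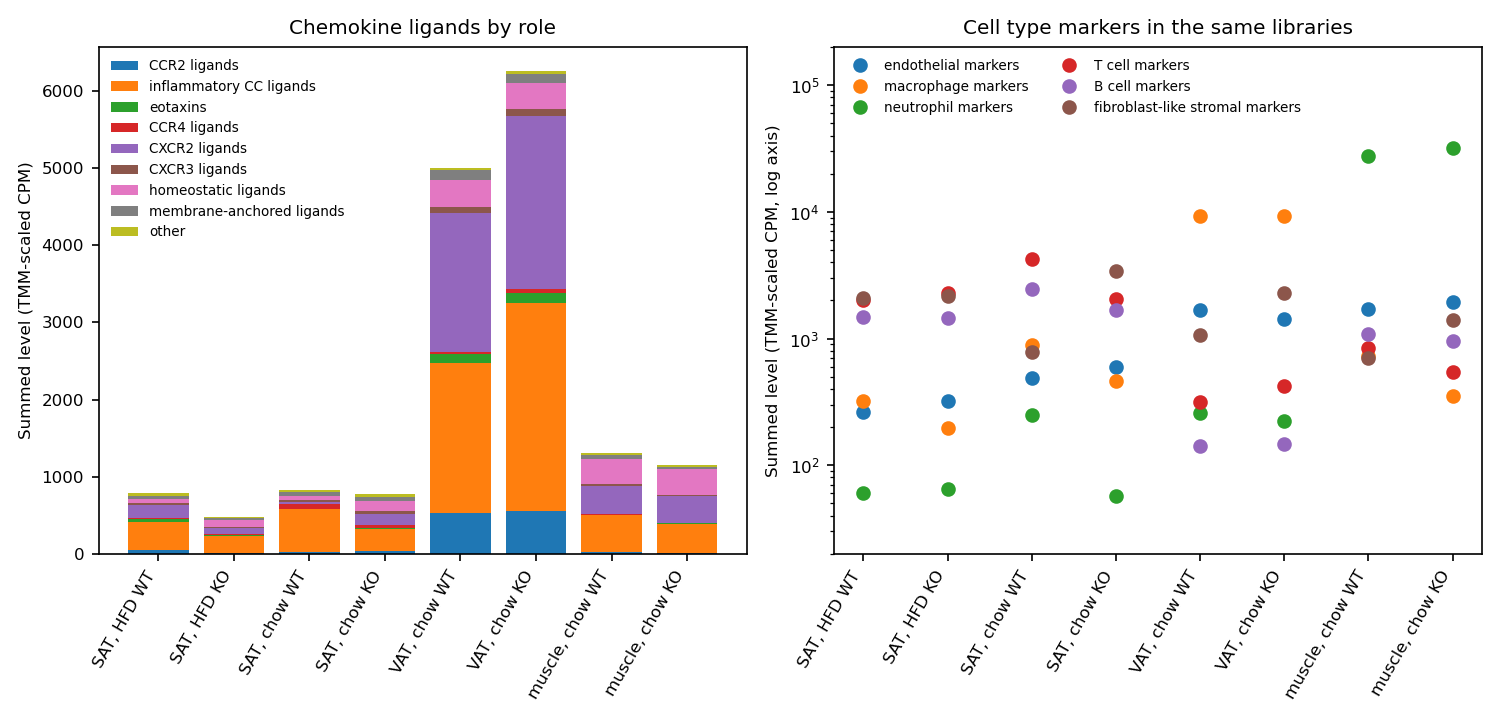
The left panel stacks the summed level of the chemokine ligand genes by role (TMM-scaled CPM, linear axis from 0) in each of the 8 libraries, and the right panel gives the summed level of 6 lists of cell type markers in the same libraries (log axis). The VAT bars reach 4997 and 6260 CPM and no other bar exceeds 1309, while macrophage markers were highest in VAT and neutrophil markers in muscle.

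Per kilobase of the gene length in the table, which allows genes to be set side by side, *Ccl5* was the highest member in all 4 SAT libraries, at 131 to 382 CPM per kilobase. *Cxcl2* was the highest in VAT, at 692 and 912 CPM per kilobase, and in muscle, at 159.8 and 162. In share of the family, *Ccl5* made up 44.3% of all chemokine ligand counts in SAT chow WT and 16.4% in SAT chow KO, and 3.21% and 3.16% in the VAT libraries. *Cxcl2* made up 28.6% and 30.1% in VAT, 25.2% and 29.1% in muscle, and 1.53% and 11.8% in SAT chow WT and KO.

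Tissues and diets were compared in a single fit of all 8 libraries, in which each tissue and diet has 1 WT and 1 KO library and genotype is a term. The spread is then what the KO over WT differences of the 4 pairs do not share, with 3 residual degrees of freedom. The same libraries enter several of these comparisons, so each is given on its own. Differences are log2 fold changes ± SE, and p-values come from edgeR's quasi-likelihood test, adjusted over the 16971 genes tested by the Benjamini-Hochberg method. The SE is approximate: it is the size of the log2 fold change divided by the square root of that test's F statistic.

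In VAT against SAT on chow, 8 of the 29 members tested were higher (27.6%, against 3.13% of all genes tested) and 0 were lower (1.87% of all genes). The 8 were *Cxcl2*, *Ccl2*, *Ccl9*, *Ccl6*, *Ccl3*, *Ccl4*, *Cxcl12* and *Cxcl10*. The members' median difference was 2.04 on the log2 scale, where the median of all genes was −0.13. Both VAT libraries lay above both SAT chow libraries for 18 members (26.6% of all genes) and below them for 3 (30% of all genes). Without the VAT library labelled WT the count of members higher was 3 (0.493% of all genes tested), without that labelled KO it was 3 (0.48%), and without SAT chow KO it was 11 (10.8%). The calls of *Cxcl2*, *Ccl2*, *Ccl4* and *Cxcl12* were lost without either VAT library. *Ccl3*, *Ccl6* and *Ccl9* passed in each of the 8 alternatives, and every one of the 8 genes kept its direction in all of them.

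In muscle against VAT, 4 members were lower (1.03% of all genes), namely *Ccl2*, *Ccl9*, *Ccl6* and *Cxcl10*, and 0 were higher (0.99% of all genes). The members' median was −2.13, against 0.06 for all genes. Without either VAT library or either muscle library the count of members called was 0 or 1, where 0.231% to 0.479% of all genes were called in either direction. In muscle against SAT on chow, *Ccl3* was higher (1.1% of all genes were) and *Ccl22* was lower (0.165% of all genes were), with a members' median of −0.69 against −0.11 for all genes. Without the WT or the KO library of muscle 0 members passed in either direction (0.266% and 0.231% of all genes did), and without SAT chow KO 6 did (10.5% of all genes).

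**Figure D2:**
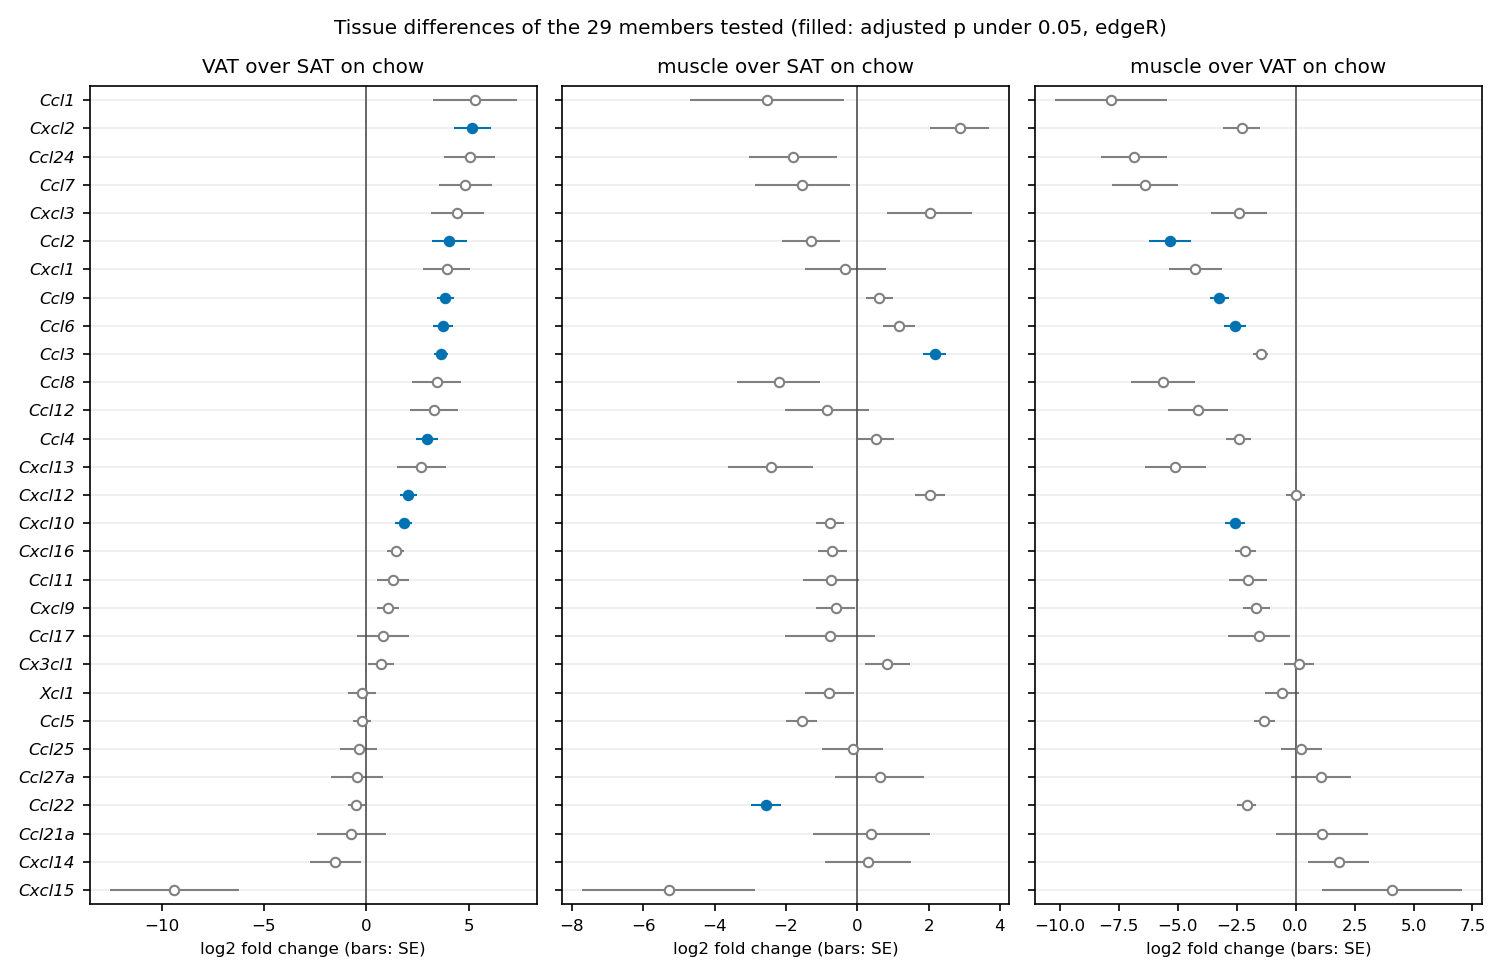
Each panel gives the log2 fold change of the 29 members tested for 1 comparison of tissues on chow (points, with bars of 1 SE, and with filled points at an adjusted p under 0.05 by edgeR), in the order of the VAT over SAT difference. The 8 filled points of the left panel all lie above 0, and the 4 filled points of the right panel all lie below 0.

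In SAT on HFD against SAT on chow, 0 members were higher (0.0% of all genes) and 0 were lower (0.0% of all genes) by edgeR. At an unadjusted p under 0.05, 0 members were higher (0.448% of all genes) and 6 were lower (8.84% of all genes), and DESeq2's Wald test called 1 member lower (1.48% of all genes). The median of all genes was itself −0.32 in this comparison with TMM scaling, −0.09 with DESeq2 size factors and −0.03 with library totals, and the members' medians were −0.29, −0.03 and 0.02, so that the sign of the members' median turns with the scaling. The largest departure relative to its error was that of *Ccl22*, a ligand of CCR4 on T cells, at log2 −2.29 ± 0.42 (SE), with an adjusted p of 0.183 by edgeR's quasi-likelihood test. Its level was 8.10 and 12.7 CPM (WT and KO) on HFD and 60.1 and 41.7 CPM on chow, so that both HFD libraries lay below both chow libraries. Without SAT chow KO, 1 member passed as higher (1.28% of all genes) and 1 as lower (1.35% of all genes).

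The ligands of CCR2 draw monocytes out of the blood. *Ccl2* (MCP-1) stood at 239 and 232 CPM (WT and KO, by the labels) in VAT, 24.0 and 7.11 in SAT on HFD, 5.01 and 22.6 in SAT on chow and 7.61 and 4.13 in muscle. Its VAT levels lay above all 6 others, and the difference from SAT on chow was log2 4.04 ± 0.84, adjusted p = 0.0372, while muscle lay below VAT by log2 −5.34 ± 0.89, adjusted p = 0.0295. *Ccl7* (MCP-3) followed a like order, at 246 and 268 CPM in VAT, 18.9 and 3.86 in SAT on HFD, 1.55 and 14.5 in SAT on chow and 6.32 and 0.737 in muscle. Its VAT over SAT difference, log2 4.83 ± 1.29, adjusted p = 0.0783, did not pass. *Ccl8* (MCP-2) stood at 30.1 and 39.6 CPM in VAT, 2.31 and 0 in SAT on HFD, 11.3 and 1.98 in SAT on chow and 2.88 and 0.295 in muscle, with 0 counts in SAT HFD KO. *Ccl12* (MCP-5) stood at 15.8 and 14.7 CPM in VAT, 1.30 and 2.39 in SAT on HFD, 1.36 and 1.67 in SAT on chow and 1.72 and 0.147 in muscle. In each of the 4 genes both VAT libraries were above every other library, and the ratio of *Ccl2* to *Ccl7* counts lay between 0.864 and 5.60 over the libraries.

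The inflammatory CC ligands *Ccl3*, *Ccl4*, *Ccl5*, *Ccl6* and *Ccl9* attract monocytes, T cells and NK cells, among others. *Ccl6* and its neighbour *Ccl9* are CCR1 ligands of rodents. *Ccl6* stood at 791 and 1181 CPM in VAT, 63.3 and 28.3 in SAT on HFD, 92.5 and 60.6 in SAT on chow and 170.3 and 169 in muscle, and *Ccl9* at 664 and 956 CPM in VAT, 38.6 and 22.7 in SAT on HFD, 59.8 and 53.5 in SAT on chow and 94.9 and 79.8 in muscle. The VAT libraries were the highest for both, by log2 3.75 ± 0.49, adjusted p = 0.00961 over SAT on chow for *Ccl6* and by log2 3.85 ± 0.41, adjusted p = 0.00524 for *Ccl9*. Against VAT, muscle was lower by log2 −2.57 ± 0.46, adjusted p = 0.0383 for *Ccl6* and by log2 −3.23 ± 0.40, adjusted p = 0.00905 for *Ccl9*. The counts of *Ccl6* over those of *Ccl9* varied little, from 1.13 to 2.12 across the 8 libraries. Reads of *Ccl6* cannot be told from those of *E230016K23Rik*, which overlaps it on the opposite strand, since the strand used in counting is not given, but that gene had at most 104 counts in a library.

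*Ccl3* and *Ccl4* (MIP-1α and MIP-1β) are made by activated macrophages and lymphocytes. *Ccl3* stood at 178 and 174 CPM in VAT, 14.3 and 10.7 in SAT on HFD, 14.0 and 14.1 in SAT on chow and 78.3 and 50.3 in muscle, and the groups did not overlap between the 3 tissues on chow. It was the sole member that passed as higher both in VAT (log2 3.65 ± 0.34, adjusted p = 0.00397) and in muscle (log2 2.17 ± 0.32, adjusted p = 0.0255) against SAT. *Ccl4* stood at 147 and 191 CPM in VAT, 13.0 and 34.5 in SAT on HFD, 22.9 and 20.7 in SAT on chow and 40.5 and 21.6 in muscle, and VAT exceeded SAT on chow by log2 2.94 ± 0.53, adjusted p = 0.0234. *Ccl5* (RANTES), a product of T and NK cells as well as of endothelial cells, had another order, with its highest level in SAT chow WT. It stood at 160.4 and 198 CPM in VAT, 239 and 126 in SAT on HFD, 367 and 126 in SAT on chow and 97.7 and 59.2 in muscle. VAT and SAT on chow overlapped, both muscle libraries lay below both SAT chow libraries, and no comparison of tissues passed for *Ccl5* (muscle over SAT on chow log2 −1.56 ± 0.44, adjusted p = 0.173).

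Eotaxins bind CCR3 on eosinophils. *Ccl24* (eotaxin-2), a product of macrophages, stood at 95.1 and 94.7 CPM in VAT, 7.66 and 0 in SAT on HFD, 4.15 and 2.36 in SAT on chow and 0.982 and 0.811 in muscle. It was near 95 CPM in both VAT libraries and under 8 CPM in every other, and the VAT over SAT difference, log2 5.04 ± 1.25, adjusted p = 0.0638, narrowly missed the threshold. *Ccl11* (eotaxin-1), a product of stromal cells, stood at 15.9 and 33.6 CPM in VAT, 28.6 and 9.19 in SAT on HFD, 4.39 and 16.9 in SAT on chow and 4.66 and 7.15 in muscle, and here VAT and SAT on chow overlapped. *Ccl26* had at most 21 counts in a library and was at 0 counts in 4 of the 8.

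The CCR4 ligands attract regulatory and Th2 cells and are made by dendritic cells. *Ccl22* (MDC) stood at 34.1 and 38.5 CPM in VAT, 8.10 and 12.7 in SAT on HFD, 60.1 and 41.7 in SAT on chow and 9.15 and 8.11 in muscle. SAT on chow was the highest group and muscle was lower than it, log2 −2.56 ± 0.42, adjusted p = 0.0361, a call that was lost without SAT chow WT as well as without either muscle library. *Ccl17* (TARC) had 12 to 76 counts in a library, and *Ccl22* counts were 2.67 to 25.9 times those of *Ccl17*.

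**Figure D3:**
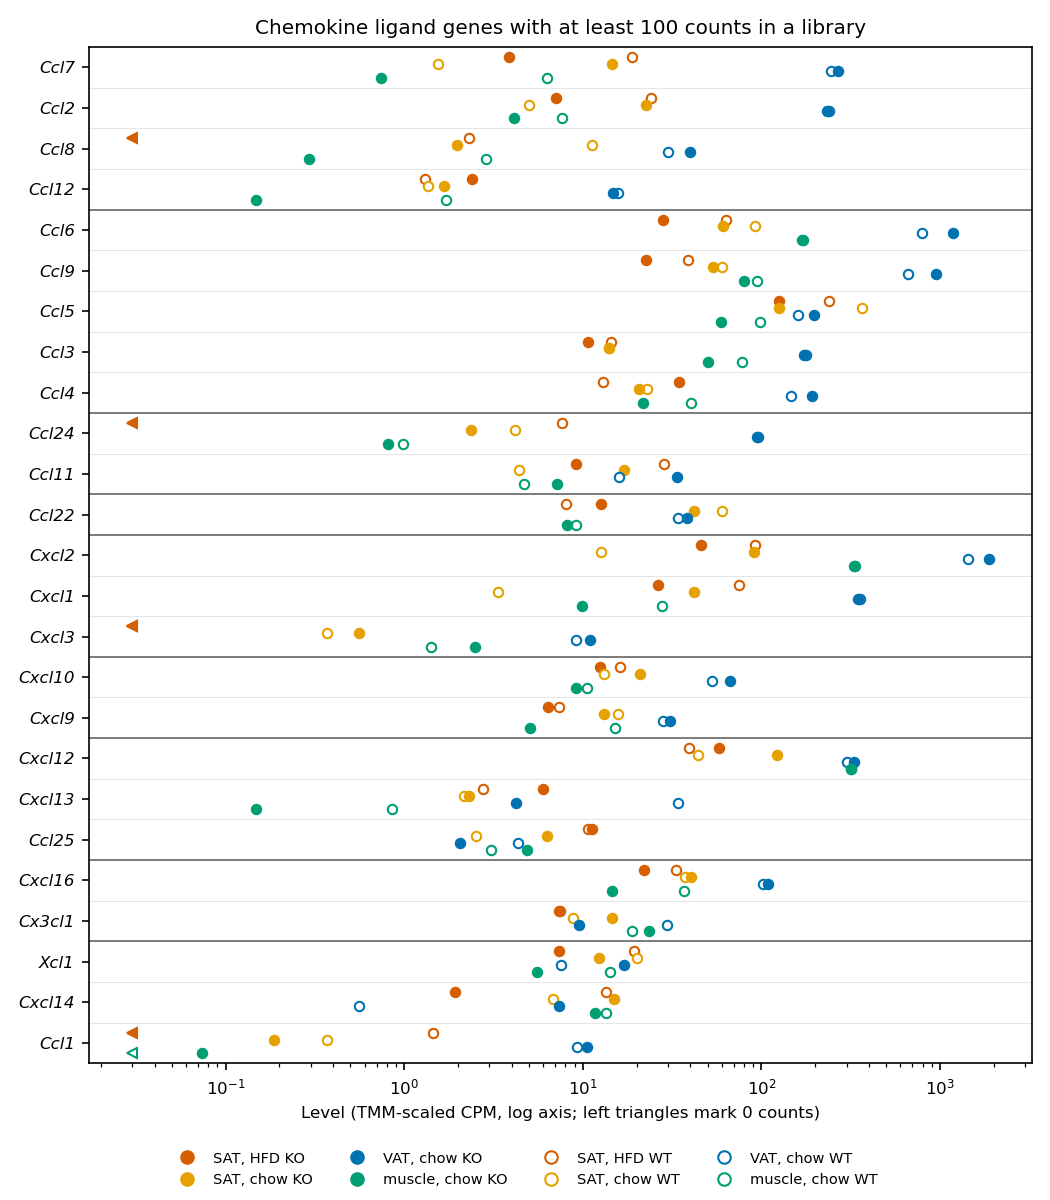
Each row is 1 of the 25 chemokine ligand genes with at least 100 counts in a library, grouped by role, and each point is its level in 1 library (TMM-scaled CPM, log axis, open for WT and filled for KO, coloured by tissue and diet, with triangles at the left edge for 0 counts). The VAT points lie to the right of the others for the CCR2 ligands, Ccl6, Ccl9 and Cxcl2, whereas the points farthest to the right for Ccl22 and Ccl5 are those of SAT chow WT.

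The CXCR2 ligands recruit neutrophils. *Cxcl2* (MIP-2) stood at 1432 and 1885 CPM in VAT, 91.7 and 45.7 in SAT on HFD, 12.7 and 91.0 in SAT on chow and 331 and 334 in muscle. VAT exceeded SAT on chow by log2 5.16 ± 0.90, adjusted p = 0.0204. Muscle over SAT on chow, log2 2.87 ± 0.83, adjusted p = 0.181, did not pass, although both muscle libraries lay above both SAT chow libraries. *Cxcl1* (KC) stood at 357 and 349 CPM in VAT, 75.0 and 26.5 in SAT on HFD, 3.34 and 42.0 in SAT on chow and 27.7 and 9.95 in muscle, and VAT over SAT on chow, log2 3.92 ± 1.14, adjusted p = 0.0999, did not pass, although both VAT libraries lay above every other. *Cxcl1* was not in fixed proportion to its neighbour *Cxcl2*: there were 0.819 counts of *Cxcl1* per count of *Cxcl2* in SAT HFD WT, 0.249 and 0.185 in VAT, and 0.0838 and 0.0297 in muscle. *Cxcl3* stood at 9.10 and 11 CPM in VAT, 0 and 0 in SAT on HFD, 0.371 and 0.558 in SAT on chow and 1.41 and 2.51 in muscle, with 0 counts in both HFD libraries. *Cxcl15*, known from lung epithelium, had 65 and 85 counts in SAT on chow, 5 in muscle KO and 0 in the other 5 libraries. *Cxcl5* had at most 3 counts in a library.

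The CXCR3 ligands *Cxcl9* and *Cxcl10* are induced by interferons and attract activated T cells. *Cxcl10* (IP-10) stood at 52.7 and 66.9 CPM in VAT, 16.2 and 12.5 in SAT on HFD, 13.1 and 21.0 in SAT on chow and 10.6 and 9.21 in muscle, and it was higher in VAT than in SAT on chow (log2 1.82 ± 0.41, adjusted p = 0.0471) and lower in muscle than in VAT (log2 −2.58 ± 0.42, adjusted p = 0.0274). The first of these calls was lost with library totals and without SAT chow WT or either VAT library. *Cxcl9* (MIG) stood at 28.0 and 30.7 CPM in VAT, 7.37 and 6.41 in SAT on HFD, 15.8 and 13.1 in SAT on chow and 15.2 and 5.08 in muscle, and no tissue comparison passed. *Cxcl10* overlaps *Art3* on the opposite strand, which had at most 143 counts in a library. *Cxcl11*, the other ligand of CXCR3, is annotated in the table as a polymorphic pseudogene and is no member, and it had at most 7 counts.

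*Cxcl12* (SDF-1) binds CXCR4 and is made by stromal and endothelial cells. It stood at 303 and 328 CPM in VAT, 39.3 and 57.7 in SAT on HFD, 44.3 and 122 in SAT on chow and 316 and 316 in muscle. VAT and muscle did not differ beyond their spread (muscle over VAT log2 0.01 ± 0.40, adjusted p = 0.998), and both lay above SAT on chow, VAT by log2 2.04 ± 0.42, adjusted p = 0.0352 and muscle by log2 2.05 ± 0.42, adjusted p = 0.0661, of which the first passed. *Cxcl13*, which attracts B cells through CXCR5, stood at 34.0 and 4.24 CPM in VAT, 2.75 and 6.02 in SAT on HFD, 2.17 and 2.29 in SAT on chow and 0.859 and 0.147 in muscle, and its highest value was in the VAT library labelled WT. *Ccl25*, known for thymus and gut, stood at 4.33 and 2.05 CPM in VAT, 10.7 and 11.2 in SAT on HFD, 2.54 and 6.26 in SAT on chow and 3.07 and 4.86 in muscle, and it overlaps *Elavl1*, which had 8107 counts over the 8 libraries, so that its counts are uncertain. *Ccl20*, a CCR6 ligand, was at 0 counts in 5 libraries and had 47 counts in SAT HFD KO, 15 in SAT chow WT and 2 in muscle WT. *Ccl27a* had 13 to 47 counts in a library and overlaps *Il11ra1* (2459 counts in all), and *Ccl28* had at most 9 counts.

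*Ccl21a*, a CCR7 ligand of lymphatic endothelium and lymphoid stroma, has near-identical copies, and the entry that held counts was ENSMUSG00000095320 on the unplaced scaffold JH584294.1. Its counts in WT and KO were 50 and 4 in VAT, 16 and 59 in muscle, 86 and 29 in SAT on chow, and 1 and 0 in SAT on HFD. Because reads could be split between copies, these are uncertain. The entry of *Ccl21a* on chromosome 4, *Ccl21c* on scaffold GL456350.1 and *Cxcl17* had at most 3 counts in a library. At 0 counts in all 8 libraries were both entries of *Ccl21b* and of *Ccl19*, *Ccl27b*, *Ccl21c* on scaffold JH584293.1, and the scaffold entries of *Ccl27a*, which were 2.

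The membrane-anchored ligands *Cx3cl1* (fractalkine, on endothelium) and *Cxcl16* (on macrophages, dendritic cells and endothelium) are released by ADAM proteases. *Cxcl16* stood at 102 and 108 CPM in VAT, 33.4 and 22.1 in SAT on HFD, 37.5 and 40.2 in SAT on chow and 36.7 and 14.7 in muscle. Both VAT libraries lay above both SAT chow libraries, and the difference, log2 1.43 ± 0.42, adjusted p = 0.0999, did not pass. *Cxcl16* overlaps *Zmynd15*, which had at most 249 counts in a library. *Cx3cl1* stood at 29.6 and 9.50 CPM in VAT, 7.37 and 7.41 in SAT on HFD, 8.85 and 14.5 in SAT on chow and 18.8 and 23.5 in muscle, with both SAT HFD libraries below the other 6 and both muscle libraries above both SAT chow libraries, while VAT overlapped with muscle and with SAT on chow. *Xcl1*, a product of activated T and NK cells, stood at 7.55 and 17.0 CPM in VAT, 19.4 and 7.34 in SAT on HFD, 20.2 and 12.3 in SAT on chow and 14.2 and 5.53 in muscle, and it overlaps *Gm20743* on the opposite strand, which had up to 122 counts in a library and 418 in all, so that its counts are uncertain. *Cxcl14*, an orphan CXC ligand of epithelia and stroma, stood at 0.555 and 7.38 CPM in VAT, 13.4 and 1.93 in SAT on HFD, 6.81 and 14.9 in SAT on chow and 13.6 and 11.6 in muscle. Both of them overlapped between SAT on chow and the other tissues. *Ccl1*, a CCR8 ligand, had 84 and 145 counts in VAT and at most 10 counts in any other library.

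The comparison of genotypes with replication takes the 4 pairs together, with tissue and diet as the block. By edgeR, 0 members were higher in KO (0.00589% of all genes were) and 0 were lower (0.0% of all genes). DESeq2's Wald test also called 0 members, where 0.0707% of all genes were called higher and 0.0412% lower. At an unadjusted p under 0.05, edgeR gave 0 members higher (1.05% of all genes) and 2 lower (0.577% of all genes). The pair were *Ccl5*, at log2 −0.73 ± 0.31 (SE), and *Ccl8*, at log2 −2.34 ± 0.93, both with an adjusted p of 1.0 by edgeR's quasi-likelihood test. *Cxcl12* was the sole member above its WT value in all 4 pairs and *Ccl24* the sole member below it in all 4. The counting interval includes 0 in muscle for *Cxcl12*, and in VAT and muscle for *Ccl24*. The other 27 members tested were not on the same side in all 4 pairs. How many of all genes lay on the same side in all 4 pairs was not counted.

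Within the pairs, a gene is counted as beyond 2-fold where its whole counting interval lies beyond 2-fold, among genes that average 10 counts or more in that pair. Such a count describes 2 libraries and holds no test. The median KO over WT ratio of all genes depends on the scaling most in the SAT chow pair, where it was 0.00 with TMM, 0.11 with DESeq2 size factors and 0.23 with library totals. With library totals, 23.1% of all genes were beyond 2-fold higher and 6.70% lower in that pair, with 7 and 2 members, and 3.66% and 1.55% of all genes in muscle, with 1 and 5 members.

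In SAT on chow, 6 of the 27 members measured were beyond 2-fold higher in KO (19.1% of all genes were) and 2 were beyond it lower (11.5% of all genes). The 6 were *Cxcl1*, *Ccl7*, *Cxcl2*, *Ccl2*, *Ccl11* and *Cxcl12*. *Cxcl1*, a neutrophil attractant, had 54 counts in WT and 677 in KO (log2 3.64, interval 3.25 to 4.08). The monocyte attractants *Ccl7*, with 25 and 234 counts (log2 3.20, interval 2.63 to 3.89), and *Ccl2*, with 81 and 364 (log2 2.16, interval 1.82 to 2.54), were higher too. The differences were log2 2.84, interval 2.63 to 3.06 for *Cxcl2*, log2 1.94, interval 1.56 to 2.34 for *Ccl11* and log2 1.46, interval 1.34 to 1.59 for *Cxcl12*. Lower in KO were *Ccl8* (log2 −2.49, interval −3.10 to −1.97) and *Ccl5* (log2 −1.54, interval −1.62 to −1.47). *Ccl3*, *Ccl4* and *Cxcl16* differed by less than 0.15 on the log2 scale, with intervals that include 0. The members' median was 0.10, close to that of all genes.

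Markers moved with these genes in the same pair. Stromal markers of the fibroblast type were 787 CPM in WT and 3423 in KO, with 8 of 9 genes beyond 2-fold higher. Mural markers were 69.6 and 221 CPM, with 5 of 9 beyond 2-fold higher and 1 lower. T cell markers were 4263 CPM in WT and 2063 in KO, with 6 of 10 beyond 2-fold lower and 1 higher (*Cd28*, log2 1.87, interval 1.80 to 1.95). NK cell markers were 588 and 252 CPM, and macrophage markers 886 and 460 CPM, with 5 of 10 lower. Among the macrophage markers, *Mertk* was higher in KO (log2 1.17, interval 0.82 to 1.54). Neutrophil markers were lower in KO too, at 57.0 CPM against 247 CPM, with 7 of the 8 measured beyond 2-fold lower. *Malat1* was 299 CPM in WT and 6005 in KO. The part of these shifts in the chemokine differences was not tested.

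In SAT on HFD, 2 of the 25 members measured were beyond 2-fold higher in KO (12.9% of all genes) and 7 were beyond it lower (10.9% of all genes), with a members' median of −0.60 against 0.06 for all genes. The 7 were *Ccl24*, *Cxcl14*, *Ccl7*, *Ccl2*, *Ccl11*, *Cxcl1* and *Xcl1*. *Ccl24* had 53 counts in WT and 0 in KO, at least 33.1-fold lower against a floor of 3 counts per library. Fewer genes were detected in this pair, 16076 in WT and 16034 in KO, than in the other libraries (19802 to 24688). This limits what a count of 0 in it can show. *Ccl7* was at log2 −2.28, interval −2.79 to −1.81, *Ccl2* at log2 −1.75, interval −2.14 to −1.38 and *Cxcl1* at log2 −1.50, interval −1.70 to −1.30. *Cxcl14* (log2 −2.77, interval −3.50 to −2.15), *Ccl11* (log2 −1.63, interval −1.98 to −1.30) and *Xcl1* (log2 −1.39, interval −1.80 to −1.01) were lower as well. Higher in KO were *Ccl4*, with 90 counts in WT and 447 in KO (log2 1.40, interval 1.08 to 1.75), although its neighbour *Ccl3* was at log2 −0.41, interval −0.80 to −0.03, and *Ccl20*, with 0 counts in WT and 47 in KO, at least 8.37-fold higher against the floor. Macrophage markers were 322 CPM in WT and 196 in KO (1 of 10 beyond 2-fold lower). NK cell markers were 354 and 345 CPM in sum, with 2 of 8 beyond 2-fold lower in KO, while stromal markers of the fibroblast type were nearly level at 2076 and 2155 CPM. The part of these in the result was not tested.

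In VAT, 1 of the 29 members measured was beyond 2-fold higher in the library labelled KO (2.4% of all genes) and 3 were beyond it lower (2.09% of all genes). The ligands with the most counts were higher in that library by less than 2-fold, *Cxcl2* by log2 0.40, interval 0.37 to 0.43, *Ccl6* by log2 0.58, interval 0.54 to 0.62 and *Ccl9* by log2 0.53, interval 0.48 to 0.57. *Ccl2* differed by log2 −0.04, interval −0.12 to 0.04, *Ccl3* by log2 −0.04, interval −0.13 to 0.05, *Cxcl1* by log2 −0.03, interval −0.10 to 0.03 and *Ccl24* by log2 −0.01, interval −0.13 to 0.12, each with an interval that includes 0. *Cxcl14* was higher, with 5 counts in the library labelled WT and 101 in that labelled KO (log2 3.63, interval 2.46 to 5.39). Lower were *Ccl21a* (log2 −4.06, interval −6.18 to −2.80), *Cxcl13* (log2 −2.99, interval −3.43 to −2.59) and *Cx3cl1* (log2 −1.64, interval −1.96 to −1.33). Among markers, 3 of the 5 lymphatic endothelial genes were also beyond 2-fold lower in the library labelled KO, and 6 of 9 mural genes were higher (170 and 699 CPM in sum). Stromal markers of the fibroblast type were 1058 CPM in the library labelled WT and 2300 CPM in that labelled KO, with 3 of 9 beyond 2-fold higher, and macrophage markers were nearly level. The part of these in the result was not tested, and the *Tert* counts in this pair go against the labels, with a counting interval that includes 0.

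In muscle, 1 of the 26 members measured was beyond 2-fold higher in KO (2.76% of all genes) and 6 were beyond it lower (2.01% of all genes). Higher was *Ccl21a* (log2 2.11, interval 1.33 to 3.04). The 6 lower were *Ccl12*, with 28 counts in WT and 2 in KO (log2 −3.28, interval −6.66 to −1.56), *Ccl8*, with 47 and 4 (log2 −3.15, interval −5.22 to −1.84), *Ccl7*, with 103 and 10 (log2 −3.04, interval −4.20 to −2.16), *Cxcl9* (log2 −1.57, interval −1.98 to −1.19), *Cxcl1* (log2 −1.47, interval −1.76 to −1.20) and *Cxcl16* (log2 −1.32, interval −1.56 to −1.09). So 3 of the 4 CCR2 ligands were lower beyond 2-fold, while *Ccl2* itself was at log2 −0.88, interval −1.37 to −0.42. The intervals of the 3 ligands with the most counts include 0. *Cxcl2* differed by log2 0.02, interval −0.04 to 0.07, *Cxcl12* by log2 0.00, interval −0.06 to 0.06 and *Ccl6* by log2 −0.01, interval −0.09 to 0.07. Macrophage markers were 729 CPM in WT and 354 in KO, with 4 of 10 beyond 2-fold lower, and stromal markers of the fibroblast type 704 and 1405 CPM, with 4 of 9 higher. Mural markers were 174 and 371 CPM, with 5 of 9 beyond 2-fold higher in KO. The part of these in the result was not tested.

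**Figure D4:**
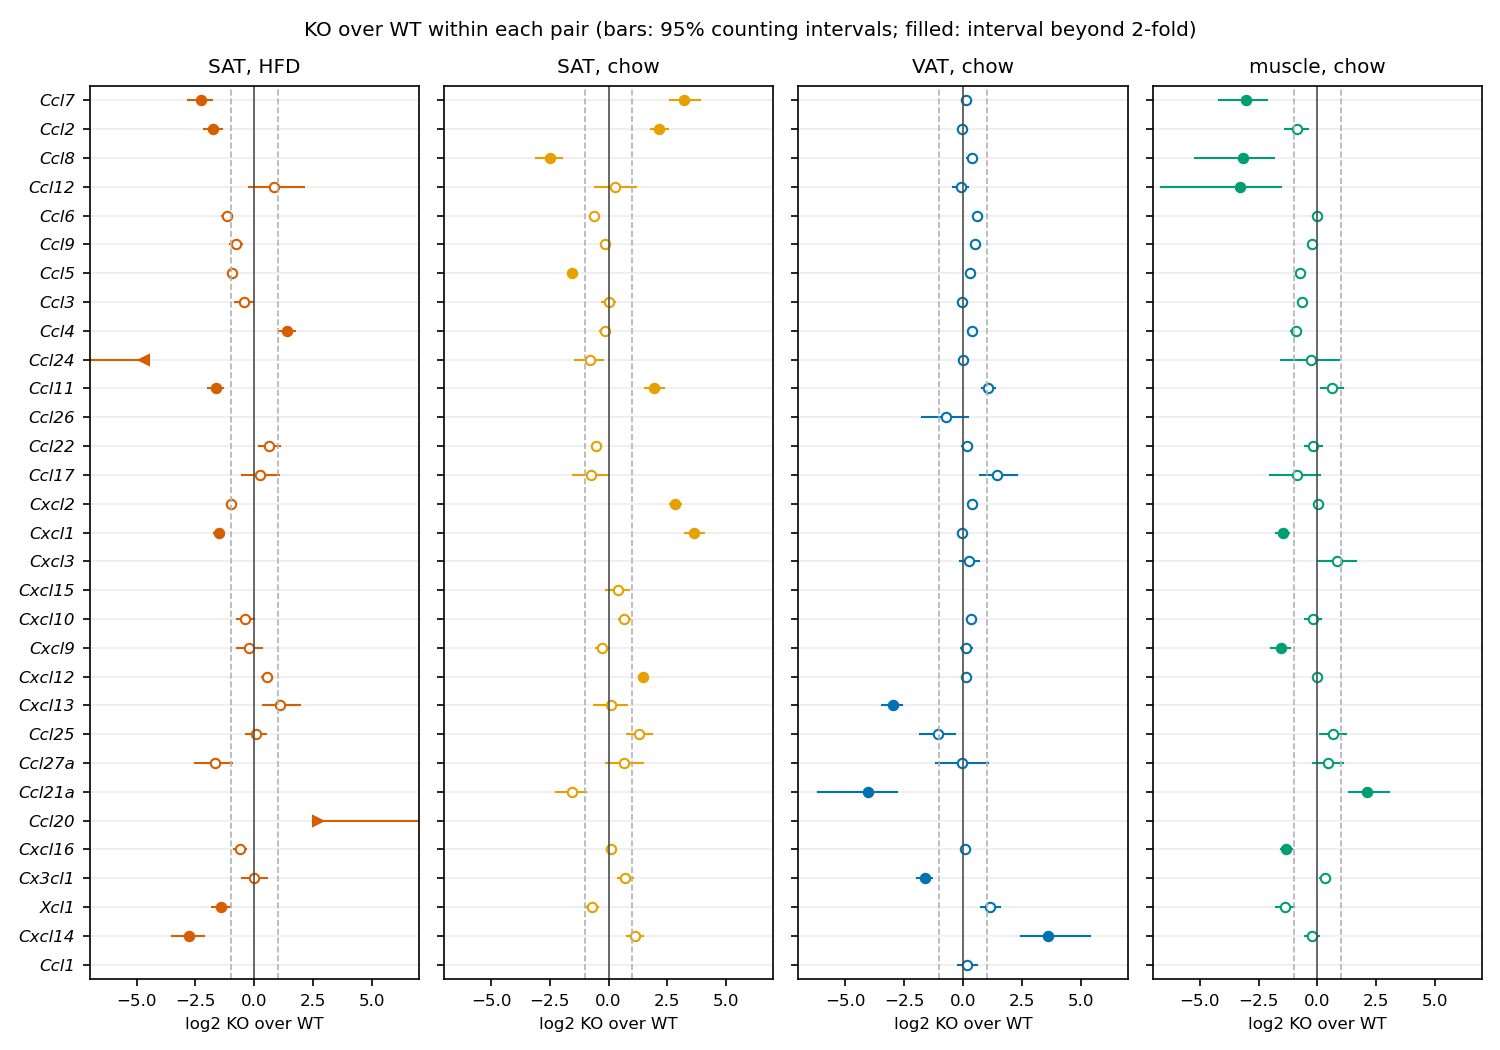
Each panel gives, for 1 pair, the log2 KO over WT ratio of the members that average 10 counts or more in it (points, with bars of the 95% counting interval, filled where the interval lies beyond 2-fold, and triangles at the limit of the interval where a library had 0 counts). The dashed lines mark 2-fold. Ccl7, Ccl2 and Cxcl1 lie to the right in SAT on chow and to the left in SAT on HFD.

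The receptors and inducers of the family were followed as lists. Of the 17 chemokine receptors tested, 2 were higher in VAT than in SAT on chow, *Ccr1* and *Ccr2*, the receptors of *Ccl6*, *Ccl9* and *Ccl3* and of *Ccl2*, with log2 3.84 ± 0.31, adjusted p = 0.00397 and log2 1.88 ± 0.38, adjusted p = 0.0341. A further 3 were lower, *Ccr6*, *Ccr9* and *Cxcr5*, which lymphocytes carry. In muscle over SAT on chow, *Ccr1* and *Cxcr2*, the neutrophil receptor of *Cxcl1* and *Cxcl2*, were higher, *Cxcr2* with log2 4.45 ± 0.75, adjusted p = 0.0386. In muscle over VAT, 1 receptor was higher (*Ccr6*) and 1 lower (*Ccr8*). Of the 5 atypical receptors, which bind chemokines without G protein signalling, *Ccrl2* was higher in VAT than in SAT (log2 2.58 ± 0.52, adjusted p = 0.0335).

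Among the inducing cytokines and signalling genes reported here, *Il1b* (log2 2.63 ± 0.50, adjusted p = 0.0280) and *Tnf* (log2 1.41 ± 0.32, adjusted p = 0.0487) were higher in VAT against SAT on chow, and *Tnf* was lower in muscle than in VAT. *Pf4*, a platelet chemokine that the name rule does not reach, was higher in VAT than in SAT (log2 4.06 ± 0.47, adjusted p = 0.00643) and lower in muscle than in VAT. *Ppbp*, the other platelet chemokine listed, had too few counts to be tested, at 0.444 and 2.41 CPM in VAT and 1.41 and 1.11 in muscle. Platelet markers (4 genes) summed to 15.1 and 20.5 CPM in VAT, 8.29 and 16.1 in SAT on chow, and 16.4 and 26.3 in muscle. None of the 3 proteases (*Adam10*, *Adam17*, *Dpp4*) passed in the comparisons of tissues. In no list did a gene pass for KO over WT or for HFD over chow by edgeR. Within the SAT chow pair, where *Cxcl1*, *Cxcl2*, *Ccl2* and *Ccl7* were beyond 2-fold higher in KO, *Il6* had 9 counts in WT and 353 in KO, and *Tnfaip3*, a target and inhibitor of NF-κB, 230 and 1838 CPM.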

How the data were processed

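The authors deposited whole-number read counts per Ensembl gene, with no normalization. The submitters' processing notes name HISAT2 2.0.5 and GRCm38 (mm10), while the counting program and the use of strand are not given in the sources used here. The labels give column-based RNA isolation and the paper's methods give Trizol. The columns were assigned to samples from their names. TMM scaling over all genes was done in edgeR 4.0.16 (R 4.3.3). Tissues, diets and genotypes were compared in edgeR by the quasi-likelihood test (robust) on all 8 libraries, with tissue and diet as a block of 4 levels and genotype as a term, for genes averaging 10 counts or more, with Benjamini-Hochberg adjustment at 0.05. Within a pair, the log2 ratio of CPM has a prior count of 0.5 and the exact binomial 95% interval from scipy 1.17.1, and a library at 0 is set to 3 counts for a bound. Alternatives were DESeq2 1.42.0 size factors, library totals, no filter, DESeq2's Wald test, no block, a prior count of 5, and leaving out each library or pair. The result of 1 listed signalling gene is not reported here. The procedures were tested on simulated data. Members with at least 100 counts in a library were named with their levels, those with 4 to 99 by range or counts, and those with fewer only by name. The members and lists were chosen with earlier results of these data known. Whether the libraries are biological replicates is not stated, so p-values measure only the spread between these libraries.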

Additional observations from a re-analysis of the deposited data

Results flagged for a closer look

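Of the 31 members measured in at least 1 pair, 6 were beyond 2-fold higher in KO in a pair and beyond 2-fold lower in another, and the difference between the pairs was not tested. How many of all genes did so was not counted. Of all genes, 19.1%, 12.9%, 2.4% and 2.76% were beyond 2-fold higher in KO in SAT on chow, SAT on HFD, VAT and muscle. In the same order, 11.5%, 10.9%, 2.09% and 2.01% were beyond it lower. *Cxcl1* was at log2 3.64 in SAT on chow, −1.50 in SAT on HFD and −1.47 in muscle. *Ccl7* was at 3.20 in SAT on chow, −2.28 in SAT on HFD and −3.04 in muscle. *Ccl2* was at 2.16 in SAT on chow and −1.75 in SAT on HFD. *Ccl11* was at 1.94 in SAT on chow and −1.63 in SAT on HFD. *Cxcl14* was at 3.63 in VAT, in the library labelled KO over that labelled WT, and −2.77 in SAT on HFD. *Ccl21a* was at 2.11 in muscle and −4.06 in VAT by the labels, with counts that could be split between near-identical copies. Each pair holds 1 library per genotype, and the SAT chow pair, which holds the positive value for 4 of these genes, is also the pair with the lowest *Malat1* level in its WT library.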

How the results depend on the processing

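With no filter on low counts, 14 members were called for VAT over SAT on chow, 7 for muscle over SAT on chow, 18 for muscle over VAT and 2 for HFD over chow in SAT, in place of 8, 2, 4 and 0. Of all genes, 7.09%, 3.28%, 3.91% and 1.07% were then called in either direction, in place of 5.0%, 1.27%, 2.02% and 0.0%. DESeq2's Wald test called 16, 6, 17 and 1 members, and 15.4%, 7.59%, 8.02% and 1.63% of the genes given an adjusted p. Leaving out 1 library at a time gave 3 to 11 members for VAT over SAT on chow, 0 to 6 for muscle over SAT on chow, 0 to 1 for muscle over VAT and 0 to 2 for HFD over chow, the 2 without SAT chow KO. The share of all genes called ran from 0.634% to 20.9%, 0.231% to 10.5%, 0.231% to 0.479% and 0.0% to 2.62% over the same fits. The lone library of a condition is then assumed to vary like the others. The cause of these shifts was not tested. For KO over WT across the pairs, 0 members were called under every alternative run, including no replicate block and leaving out each pair. Of all genes, 0.0% to 0.142% were then called in either direction. Within the pairs, the members beyond 2-fold numbered 4 to 5 for VAT, 6 to 7 for muscle, 8 to 9 for SAT chow and 8 to 11 for SAT HFD over the scalings and the filter. Of all genes, in the same order, 2.13% to 2.40%, 2.76% to 3.83%, 15.9% to 23.1% and 12.6% to 13.3% were then beyond it higher. Beyond it lower were 2.09% to 3.92%, 1.55% to 2.01%, 6.70% to 11.5% and 10.4% to 16.1%. The members' median log2 ratios, in the same order, ran from 0.09 to 0.13, −0.26 to −0.10, 0.10 to 0.33 and −0.63 to −0.53 over the scalings and the prior count. Leaving out a library within a pair was not possible, with 1 library per genotype. For single members, 32 of 402 test results under an alternative lost the threshold, 62 passed it anew and none turned direction past it. Of 315 values within pairs under an alternative, 17 left the counting interval of the value given, and none of those beyond 2-fold turned sign. Depth limits the 15 members under a mean of 10 counts, which the filter keeps out of the tests of the report. With no filter 36 members were tested.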
